A study of Mus musculus with 18 samples.

Results

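Collagens are the triple-helical proteins of the extracellular matrix. The family was taken as every protein-coding gene whose GENCODE vM21 symbol has the form Col, a number, the letter a and a number. All 44 such genes were among the 46603 genes of each deposited table, and the 37 with a mean of at least 1 CPM (counts scaled by the total of their sample) over the 18 samples are described here. These 37 were 11 of 11 fibrillar collagens, 6 of 6 of the basement membrane network, 4 of 6 of beaded filaments, 7 of 9 fibril-associated collagens, 3 of 3 short-chain collagens, 3 of 4 transmembrane collagens, 2 of 2 multiplexins and the 1 anchoring fibril collagen. Col6a4 lay just inside the threshold with a mean of 1.15 CPM, and Col26a1 just outside it with 0.831 CPM. The mean of Col6a4 rests on AT2 tumoroid 3 (4.17 TPM, against at most 0.73 TPM elsewhere) and was 0.289 CPM without it, a check made after seeing the data that leaves 36 collagens. The other collagens below it were Col6a5, Col6a6, Col13a1, Col19a1, Col22a1 and Col28a1. Among these 7 the highest level in any sample was 3.58 TPM (a length-scaled share of a sample's transcripts), for Col26a1 in the mixed BASC culture with Ad-GFP.

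Fibrillar collagens I, III and V form the tension-bearing fibers of the lung interstitium and are made mostly by fibroblasts, while collagen IV forms the sheet-like network of basement membranes under epithelium and around capillaries. Collagens XVII and VII anchor basal epithelial cells to that sheet, the former as a membrane protein of hemidesmosomes and the latter as the anchoring fibrils beneath them. Each chain is hydroxylated and folded in the endoplasmic reticulum, exported, trimmed by proteases and crosslinked outside the cell, and cells sense the product through integrins and discoidin domain receptors.

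RNA was sequenced from 18 mouse cultures, 10 of lung organoids grown before transplant and 8 of tumoroids grown from tumors, with 1 culture for each organoid condition. The epithelial cells came from mice in which a lox-stop-lox cassette, a CAG promoter and human EGFR with the T790M and L858R mutations replace 1 Col1a1 locus, so that 1 copy of Col1a1 in these cells is altered. Cells of non-tumor mice were sorted as club (NGFR-negative) or basal (NGFR-positive) cells of the trachea. Distal lung gave Sca1-negative AT2 cells and Sca1-positive bronchioalveolar stem cells (BASCs). Every population was grown both with Ad-GFP and with Ad-Cre, an adenovirus whose Cre recombinase removes the stop. The sort used antibodies to EpCAM (an epithelial marker), CD31 (endothelial), CD45 (immune), NGFR and Sca1. BASC organoids were separated by hand and shape into alveolar, bronchiolar and mixed cultures, and the mixed ones held organoids of both shapes. The alveolar and bronchiolar cultures sequenced were of Ad-Cre cells. The labels give organoids and tumoroids alike a growth in Matrigel beside support cells, which they call lung mesenchymal endothelial, and name no step that removes these before RNA was taken. The methods name neonatal lung as the source of the support cells, and neither their genotype nor the strain and age of the sorted mice is given in the sources used here. Tumoroids from AT2 cells (3), mixed BASCs (3) and bronchiolar BASCs (1) came from tumors that formed after Ad-Cre organoids were put into the trachea of nude mice (Foxn1 mutant, lacking most T cells), and 1 further tumoroid, called autochthonous, came from a tumor of an adult mouse of the EGFR line given Ad-Cre through the nose. The AT2 tumoroids carry an NGFR-negative sorting label beside their AT2 origin and were placed by origin. Labels of some tumoroids share a number and do not say whether they share a mouse, and all 8 were counted as separate samples. Each organoid culture enters more than 1 of the comparisons, so these are not independent of each other. Organoids and tumoroids were sequenced on different platforms, so transplant and platform cannot be told apart. Total expected counts were 27772660 to 97191624 per organoid sample (median 55182025.5) and 15327265 to 23355938 per tumoroid sample (median 22464438.5). At these depths 3 counts, the limit below which a gene is treated as not detected, equal 0.0309 to 0.108 CPM in organoids and 0.128 to 0.196 CPM in tumoroids, a limit for counting error only.

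The markers of the sorted populations were checked first. AT2 cultures held 61211 (Ad-GFP) and 60435 TPM (Ad-Cre) of the surfactant gene Sftpc, and the alveolar BASC culture 60996 TPM. The club cultures, sorted as NGFR-negative, held 53.1 and 50.2 TPM of Ngfr, against 48.3 and 46.6 TPM in the basal cultures. Krt5, a basal keratin, stood at 2063 and 1898 TPM in club and at 1694 and 1549 TPM in basal cultures, and the club gene Scgb1a1 at 11.4 and 18.4 TPM in club and at 10.4 and 7.03 TPM in basal cultures. Ngfr and Krt5 were thus slightly higher in the club cultures, against the sorting label. In the test of basal against club cultures described below, 0 of 5 basal markers were called. AT2 tumoroid 3 stood apart from the other AT2 tumoroids, with an epithelial marker sum of 846 TPM against 3659 and 3168 TPM. Several results that rest on it are given without it as well. The relation of collagens to fibroblast markers among tumoroids, given below, was not counted without it alone.

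Summed over all 44 genes, collagens made up 1543 to 1854 TPM in the 4 tracheal cultures (club and basal, each with Ad-GFP and Ad-Cre). The sum was 4259 TPM in AT2 cells with Ad-GFP, 4989 TPM with Ad-Cre and 3180 TPM in the alveolar BASC culture, which together are called the 3 alveolar cultures. Mixed BASC cultures held 1426 (Ad-GFP) and 2778 TPM (Ad-Cre) and the bronchiolar BASC culture 2308 TPM. These are called the 3 airway-type BASC cultures for short, although the mixed ones hold alveolar organoids as well. All 3 alveolar cultures lay above the 7 others. Among tumoroids the sum ran from 1189 TPM in AT2 tumoroid 2 to 5799 TPM in AT2 tumoroid 3, and the next highest was 2791 TPM in the autochthonous one. On average over the 18 samples, Col1a1, Col1a2, Col3a1, Col4a1 and Col4a2 carried 60.3% of the collagen TPM.

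**Figure D1:**
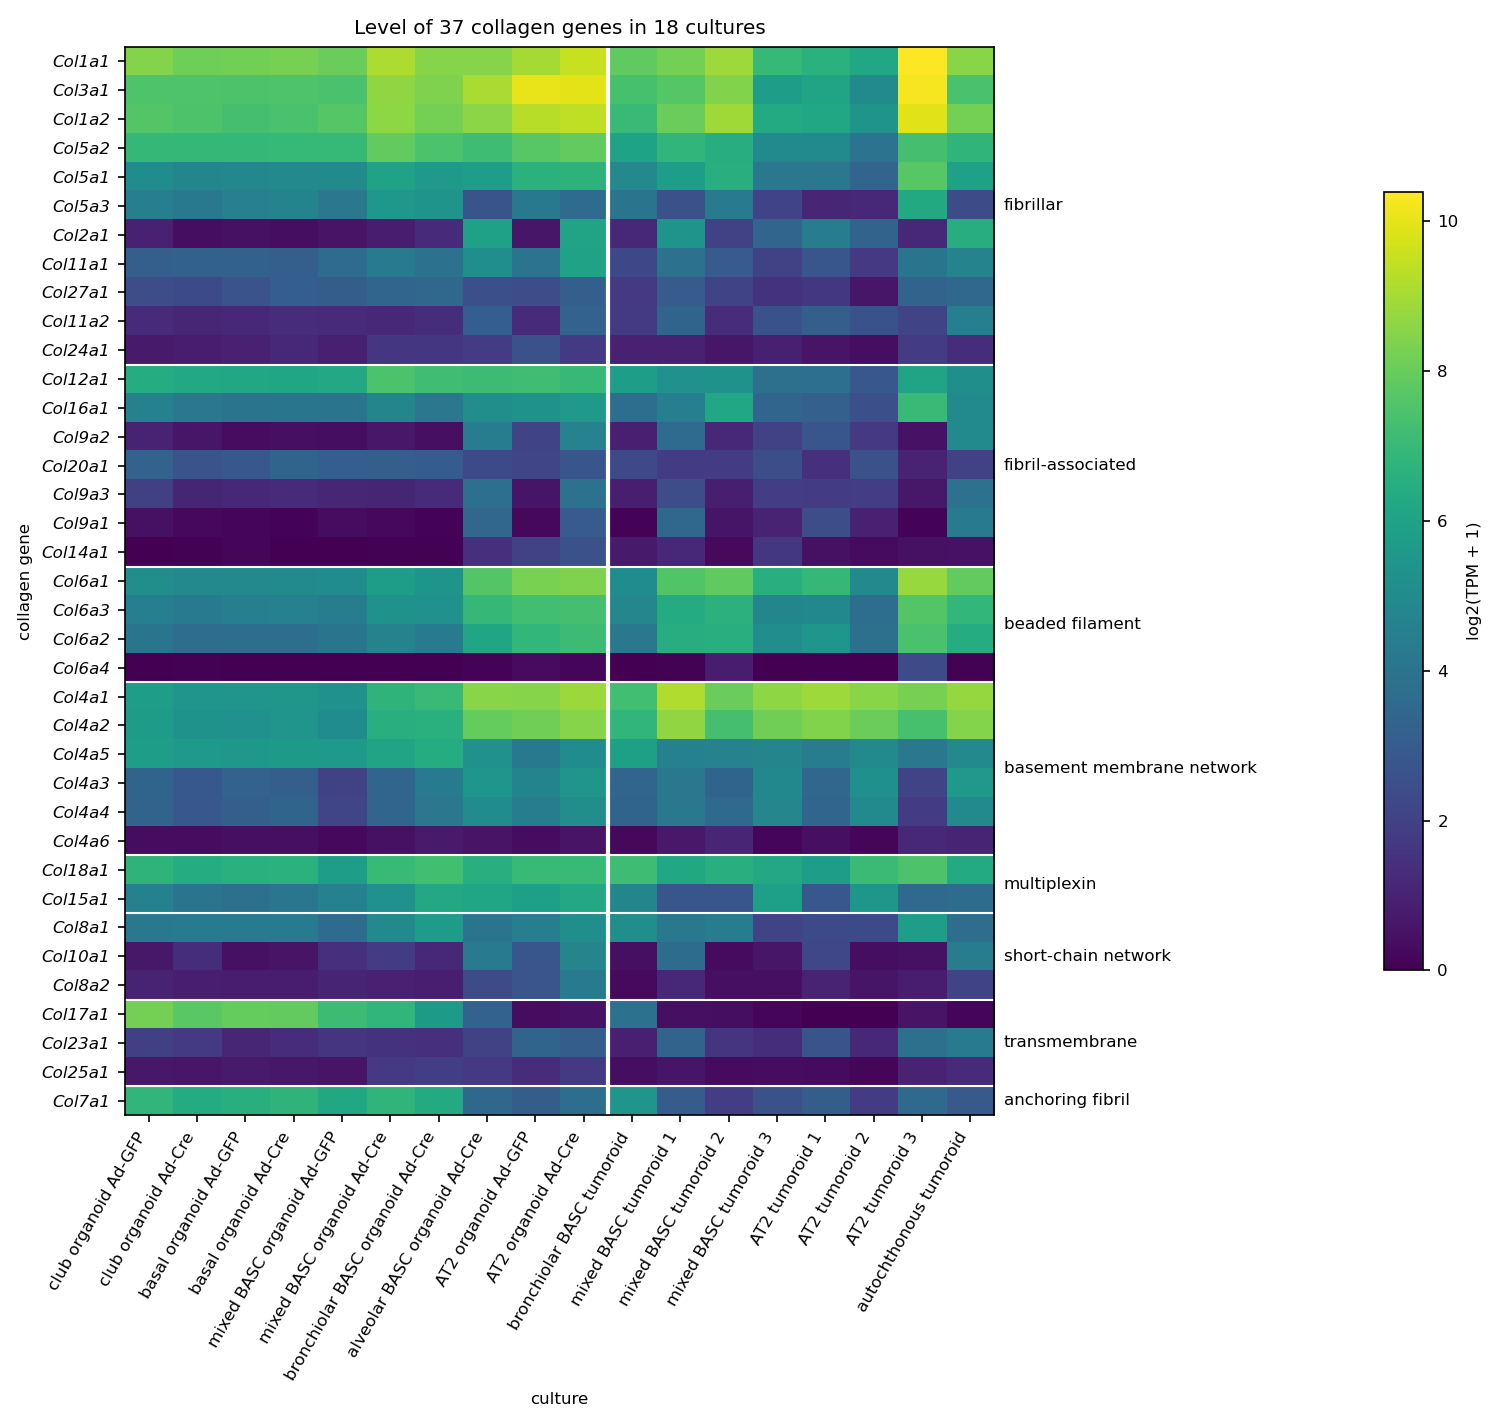
Level of each of the 37 collagens (vertical, grouped by class) in each of the 18 cultures (horizontal), as log2 of TPM plus 1 in color, with organoids left and tumoroids right of the white line. Col17a1 and Col7a1 are high in tracheal and airway-type BASC cultures, Col4a1 and Col4a2 in alveolar cultures and tumoroids.

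The widest difference in the family lay between the alveolar and the tracheal cultures, the contrast of distal with proximal lung epithelium. Of the 37 collagens, 29 were higher in the alveolar cultures, where 32.9% of all 18135 genes tested were higher, and 4 were lower, where 34.1% of all genes were lower. The median log2 fold change was 2.03 for the collagens and -0.04 for all genes. All fold changes and adjusted p values come from the edgeR quasi-likelihood test on counts with Benjamini-Hochberg adjustment over all genes tested, and a gene is called at an adjusted p below 0.05. The 4 that fell were Col7a1, Col17a1, Col4a5 and Col20a1, and Col4a6, Col5a3, Col8a1 and Col27a1 were not called. Col6a4 was called higher with its tracheal counts at the detection limit, so no fold is given for it. With the members chosen without AT2 tumoroid 3, which drops Col6a4, 28 of 36 were higher and 4 lower. The Ad-GFP and Ad-Cre cultures of a population are aliquots of 1 sort, and the test took them as independent, so the 3 and 4 cultures stand for 2 sorted populations on each side (AT2 and BASC, club and basal). Fewer cells of a type and less RNA per cell cannot be told apart in such mixtures.

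Class counts of this comparison stand beside 32.9% of all genes higher and 34.1% lower. Counts of the collagen IV, multiplexin, short-chain and transmembrane classes are too small to be told apart from these shares. Among fibrillar collagens 9 of 11 rose in the alveolar cultures, with a median log2 change of 1.80. Col1a1 (ENSMUSG00000001506, GRCm38 chromosome 11, 94936224 to 94953042, plus strand), the main chain of collagen I, stood at 351 and 273 TPM in the club cultures (Ad-GFP, then Ad-Cre, as in all value pairs below), 289 and 307 TPM in the basal, 508 and 732 TPM in the AT2 and 365 TPM in the alveolar BASC culture. The alveolar values all lay above the tracheal ones, and the alveolar BASC and club Ad-GFP cultures were the closest. The log2 fold change was 0.96 (SE 0.196, n = 3 and 4, adjusted p 0.00277).

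Col3a1, the single chain of collagen III that mixes into collagen I fibers, was at 184 and 186 TPM in club, 179 and 184 TPM in basal, 1069 and 997 TPM in AT2 and 543 TPM in alveolar BASC cultures. The tracheal cultures lay within a few TPM of each other and far below the alveolar ones. Its log2 change was 2.39 (SE 0.226, adjusted p 4.64e-05). The TPM ratio of Col3a1 to Col1a1 had a median of 0.610 in the tracheal and 1.49 in the alveolar cultures, and the ratio of Col1a1 to Col1a2, the partner chain in collagen I, a median of 1.80 and 0.937. Col1a2 itself rose by a log2 change of 1.80 (SE 0.165), and Col5a1, a chain of the fibril-nucleating collagen V, by 1.70.

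Col2a1 (ENSMUSG00000022483, chromosome 15, 97975602 to 98004695, minus strand), the chain of cartilage collagen II, had the largest log2 change of the family with all cultures in, 6.73 (SE 1.37, adjusted p 0.00274). With 1 library left out it ran from 6.33 to 7.32, and Col17a1 changed more, by -9.57, without the alveolar BASC culture. Levels of Col2a1 were 0.94 and 0.30 TPM in club, 0.37 and 0.29 TPM in basal, 0.53 and 66.1 TPM in AT2 and 60.3 TPM in the alveolar BASC culture. The groups overlapped, since AT2 with Ad-GFP was as low as the tracheal cultures while both alveolar Ad-Cre cultures were high. After these values were seen, Col2a1 was grouped with the other collagens of cartilage (Col9a1, Col9a2, Col9a3, Col10a1, Col11a1 and Col11a2), and no test was made on the group. The 7 summed to 11.9 to 15.0 TPM in the tracheal, 26.5 TPM in the AT2 Ad-GFP, 206 TPM in the AT2 Ad-Cre, 165 TPM in the alveolar BASC and 16.7 to 24.2 TPM in the airway-type BASC cultures. In the tumoroids the sum was highest in the autochthonous one (218 TPM) and in mixed BASC tumoroid 1 (103 TPM), and between 9.65 and 49.8 TPM in the other 6. Of a list of 7 chondrocyte markers, 3 could be tested between alveolar and tracheal cultures and 2 of them rose. The list summed to 23.9 TPM in AT2 Ad-Cre, 19.8 TPM in alveolar BASC, 15.9 TPM in the autochthonous and 9.03 TPM in mixed BASC tumoroid 1, and to at most 4.52 TPM in the other 14 samples. Over the 18 samples the proteoglycan gene Acan was its most abundant member, and Matn1 was below 0.5 TPM in all samples. Chondrocytes are not EpCAM-positive epithelium, and the values do not show whether these transcripts come from the sorted fraction or from the support cells. The part of such cells in the result was not tested.

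**Figure D2:**
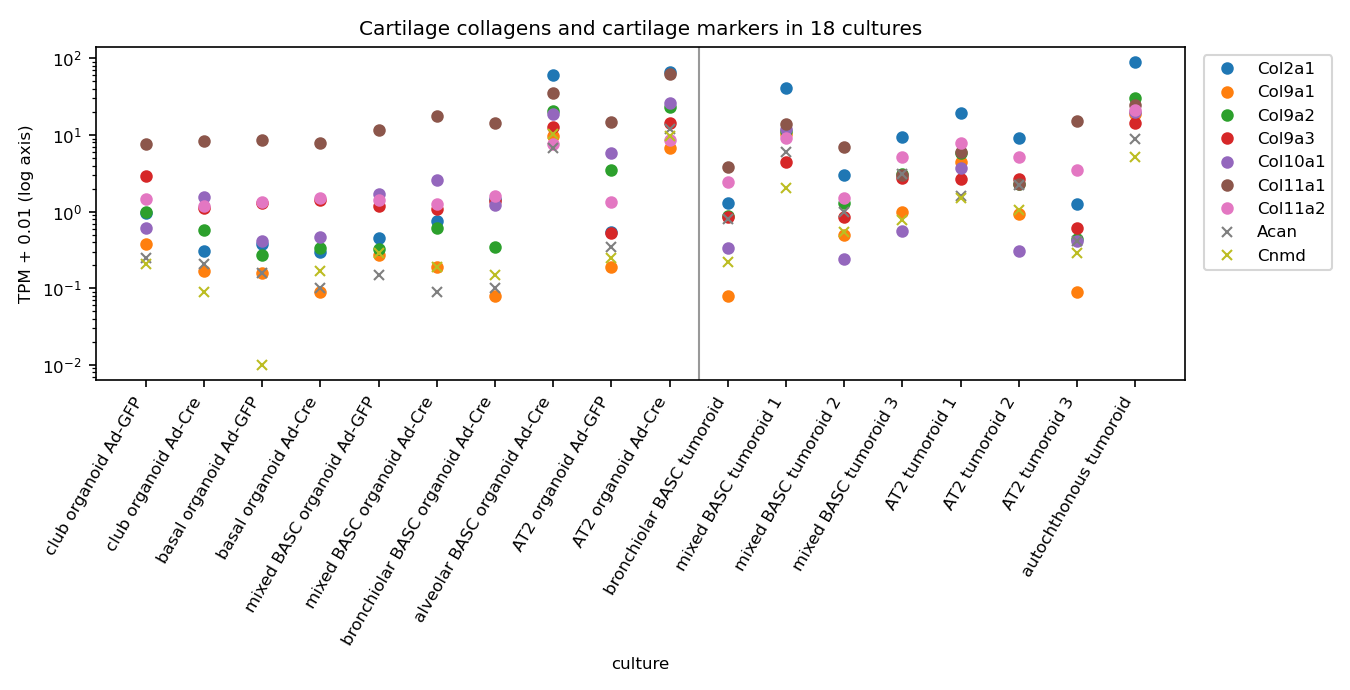
TPM plus 0.01 on a log axis (vertical) of 7 cartilage collagens (dots) and cartilage markers (crosses) in each culture (horizontal), with organoids left of the line and tumoroids right of it. Most of the genes are high together in AT2 Ad-Cre, alveolar BASC, the autochthonous tumoroid and mixed BASC tumoroid 1.

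Fibril-associated collagens, which sit on the surface of fibrils, rose in 6 of 7 cases and fell in 1, with a median of 3.40. Col12a1, the most abundant of the class, stood at 85.9 and 78.1 TPM in club, 73.2 and 67.5 TPM in basal, 148 and 123 TPM in AT2 and 138 TPM in alveolar BASC cultures. All 3 alveolar values lay above all 4 tracheal ones, and the log2 change was 0.69 (SE 0.125, adjusted p 0.00145). Col14a1 was near the detection limit in the tracheal cultures, with 0.01 and 0.05 TPM in club and 0.09 and 0.02 TPM in basal, against 3.08 and 4.92 TPM in AT2 and 1.71 TPM in alveolar BASC cultures. Its groups were apart, with a fitted log2 change of 5.79 (SE 0.625, adjusted p 9.1e-05). The size of that change is uncertain, since club Ad-GFP and basal Ad-Cre were at or below the limit of 3 counts. Beaded-filament collagen VI, which links cells to fibrils, rose in 4 of 4 tested chains, or 3 of 3 with Col6a4 dropped. Col6a1, its most abundant chain, was at 34.2 and 28.4 TPM in club, 28.8 and 29.2 TPM in basal, 314 and 332 TPM in AT2 and 198 TPM in alveolar BASC cultures. The alveolar cultures were far above the tracheal ones, by a log2 change of 3.38 (SE 0.156, adjusted p 1.62e-06). Col6a1 and Col6a2 kept a TPM ratio of 1.93 to 2.83 over the 18 samples.

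Basement membrane collagen IV split by chain, with 4 of 6 chains higher in the alveolar cultures and 1 lower. Col4a1 (ENSMUSG00000031502, chromosome 8, 11198423 to 11312826, minus strand), a chain of the ubiquitous network, was at 54.95 and 41.4 TPM in club, 41.5 and 44.7 TPM in basal, 358 and 450 TPM in AT2 and 376 TPM in alveolar BASC cultures. The alveolar values were far above the tracheal ones, and the log2 change of 3.28 (SE 0.123, adjusted p 7.47e-07) had the smallest adjusted p of the family. Its partner Col4a2 rose by 2.94 (SE 0.138), and Col4a3 and Col4a4, chains of the specialized network of alveolar and kidney basement membranes, by 2.48 (SE 0.225) and 2.03. Col4a5, which pairs with Col4a3 and Col4a4 or with Col4a6, went the other way: it stood at 54.6 and 47.2 TPM in club, 45.4 and 50.2 TPM in basal, 17.3 and 32.1 TPM in AT2 and 37.5 TPM in the alveolar BASC culture. Its groups were apart, and the log2 change was -0.74 (SE 0.207, adjusted p 0.0131). The TPM ratio of Col4a5 to Col4a1 had a median of 1.11 in tracheal cultures, 0.0713 in alveolar cultures, 0.674 in airway-type BASC cultures and 0.0641 in the 7 tumoroids after transplant, with 0.401 in the bronchiolar one.

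The multiplexins Col15a1 and Col18a1, proteoglycans of the basement membrane zone, both rose. Col18a1 was at 108 and 85.8 TPM in club, 95.8 and 98.9 TPM in basal, 128 and 126 TPM in AT2 and 92.0 TPM in alveolar BASC cultures. Its groups overlapped, and its log2 change was 0.38 (SE 0.107, adjusted p 0.0129). Col15a1 rose by 2.09. Of the short-chain collagens, Col10a1 rose by 4.68 and Col8a2 by 3.65, and Col8a1, the most abundant, was not called. Col8a1 stood at 17.0 and 17.7 TPM in club, 19.2 and 19.1 TPM in basal, 21.0 and 35.5 TPM in AT2 and 15.2 TPM in alveolar BASC cultures, so its groups overlapped.

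The epithelial collagens were lower in the alveolar cultures. Col17a1 (ENSMUSG00000025064, chromosome 19, 47646344 to 47692094, minus strand), the transmembrane collagen of hemidesmosomes, stood at 295 and 212 TPM in club and 244 and 235 TPM in basal cultures, against 0.26 and 0.44 TPM in AT2 and 8.54 TPM in alveolar BASC. The groups were far apart, and the alveolar BASC culture was the highest of its group. The log2 change was -6.21 (SE 1.38, adjusted p 0.00428), and it was -9.57 without the alveolar BASC culture. Col7a1 (ENSMUSG00000025650, chromosome 9, 108953586 to 108984875, plus strand), the anchoring fibril collagen, was at 114 and 84.3 TPM in club, 91.9 and 108 TPM in basal, 7.32 and 12.4 TPM in AT2 and 10.5 TPM in alveolar BASC cultures. Its groups were also apart, with a log2 change of -3.50 (SE 0.162, adjusted p 1.62e-06). The other transmembrane collagens Col23a1 and Col25a1 rose by 1.89 and 1.98.

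Fibroblast markers moved with these collagens. The counts of each list below stand beside 32.9% of all genes higher and 34.1% lower, and the endothelial, immune and AT1 counts are too small to be told apart from these shares. Of 16 fibroblast genes, none a collagen, 15 were tested, and 14 rose and 1 fell between alveolar and tracheal cultures, with a median of 2.31. The list summed to 444 and 444 TPM in club and 431 and 422 TPM in basal cultures, against 2223 and 1971 TPM in AT2, 1221 TPM in alveolar BASC, 478 and 1030 TPM in mixed BASC and 966 TPM in bronchiolar BASC cultures. In the tumoroids it summed to 798 TPM in the autochthonous one, 220, 90.1 and 2148 TPM in AT2 tumoroids 1 to 3, 693, 1364 and 189 TPM in mixed BASC tumoroids 1 to 3 and 512 TPM in the bronchiolar one. Dcn was its most abundant gene over the 18 samples and Tcf21 lay below 0.5 TPM in all samples. Smooth muscle and pericyte markers rose in 8 of 12 and fell in 2, and summed to 118 to 160 TPM in tracheal and 213 to 260 TPM in alveolar cultures, with Acta2 the most abundant and Des below 0.5 TPM in all samples. Endothelial markers rose in 4 of 7 and fell in 1, and summed to 9.66 to 12.7 TPM in tracheal and 143 to 185 TPM in alveolar cultures, while the defining genes Cdh5, Kdr, Tie1, Emcn and Cldn5 were below 0.5 TPM in all samples and Esam was the most abundant. Mesothelial markers fell in 3 of 3, with Msln the most abundant and Wt1 and Lrrn4 below 0.5 TPM in all samples. Immune markers rose in 3 and fell in 2 of 6, with Cd68 the most abundant and Cd3e below 0.5 TPM in all samples. Of the epithelial lists, general epithelial markers fell in 8 of 8, AT2 markers rose in 8 of 8, AT1 markers rose in 4 and fell in 2 of 7, club markers rose in 1 and fell in 3 of 4, and basal markers fell in 5 of 5. The part of the cell mixture in the collagen result was not tested beyond 1 fit with a fibroblast score (mean log2 CPM of the fibroblast list) as a covariate. That score was 4.41 to 4.54 in the tracheal and 6.06 to 6.71 in the alveolar cultures, so score and lineage can hardly be told apart. In that fit 3 of 37 collagens were called (Col4a1, Col4a3 and Col17a1), as were 2.1% of all genes. Of the 33 called without the score, 13 kept their direction with a log2 change at least as large, 7 kept it with a smaller one and 13 changed sign, and the SE was larger by a median factor of 4.35. Among those as large were Col4a1 (3.48, SE 0.608), Col4a3 (4.64), Col4a4 (3.90, not called), Col7a1 (-3.72, SE 0.855, not called) and Col2a1 (11.7, SE 5.57, not called). Col4a2 (2.25) and Col6a1 (1.52) were smaller, and Col1a1 (-0.81), Col3a1 (-0.82), Col12a1 (-0.35) and Col17a1 (8.04) were among those that changed sign. In 1 fit over all 18 samples 21 collagens and 38.6% of all genes were called, and with all 6 distal cultures in place of the 3 alveolar ones 0 collagens and 0.276% of all genes were.

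The genes that make, cut and sense collagen were read from lists, beside the same 32.9% of all genes higher and 34.1% lower. Hydroxylases and their partners, which modify proline and lysine, rose in 10 of 15, with P4hb, the most abundant, at 1.5 (log2) and P3h3 at 2.15. Chaperones and export factors rose in 6 of 8 and fell in 1. Serpinh1, the collagen chaperone of the endoplasmic reticulum, rose by 2.20 (SE 0.0790, adjusted p 6.71e-07) and the folding factor Fkbp14 by 3.11, while the export receptor Mia3 changed by -0.15. Processing and crosslinking genes rose in 11 of 12 tested of 13, among them the procollagen proteinases Bmp1 (2.24) and Adamts3 (3.25) and the lysyl oxidases Lox (1.12) and Loxl3 (2.93), and Pcolce2 changed by -1.37. The degradation list, which shares Fap with the fibroblast list, holds enzymes and uptake genes as well as the metalloproteinase inhibitors Timp1 to Timp4. Of its enzymes and uptake genes 4 rose and 1 fell of 8 tested of 9, with the gelatinase Mmp2 at 2.51 and the collagenase Mmp13 at -3.09. Of the 4 inhibitors 3 rose, among them Timp2 (1.60), the most abundant gene of the list, and Timp4 changed by -1.19. Receptors rose in 3 and fell in 2 of 7 tested of 9, near the shares of all genes: Ddr2, found on mesenchymal cells, rose by 2.58, its epithelial relative Ddr1 changed by -1.08, the integrin chain Itga2 by -3.44, and the shared integrin chain Itgb1 was not called. Partners of collagen in hemidesmosomes and basement membranes rose in 4 and fell in 9 of 16. Itgb4, the integrin chain of hemidesmosomes, changed by -5.32 (SE 0.645) and the laminin chain Lama3 by -1.81, whereas the nidogens Nid1 and Nid2, which tie laminin to collagen IV, rose by 1.82 and 4.84.

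The airway-type BASC cultures were set against the same 4 tracheal cultures, so this comparison shares its controls with the one above. The edgeR test called 0 of 35 collagens, where 0.341% of 17908 genes were called, 15 collagens had an unadjusted p below 0.05, as did 17.5% of all genes, and DESeq2 called 6 (5 higher, 1 lower) and 6.44% of all genes. The 3 BASC cultures stand for 1 sorted population. The median log2 change was 0.51 for the collagens and 0.00 for all genes, and 27 of 35 were positive. Mixed BASC with Ad-GFP stood near the tracheal cultures and decided the count. Without it 22 collagens and 26.4% of all genes were called in either direction, and 21 of these collagens were higher. Col1a1 was at 260 and 550 TPM in mixed and 361 TPM in bronchiolar BASC cultures, with a log2 change of 0.36, which was 0.0057 without mixed BASC Ad-Cre and 0.58 without mixed BASC Ad-GFP. Col4a1 stood at 37.4 and 109 TPM in mixed and 127 TPM in bronchiolar BASC cultures, with a log2 change of 1.00 (SE 0.358, adjusted p 0.224), and 0.73 to 1.36 with 1 library left out, the latter without mixed BASC Ad-GFP. For both genes the mixed Ad-GFP culture was below the tracheal range and the others above it. Col17a1 was at 139 and 113 TPM in mixed and 49.1 TPM in bronchiolar BASC cultures, all below the 4 tracheal values and above the 3 alveolar ones. Its log2 change of -1.33 (SE 0.328, adjusted p 0.115) was called without the mixed BASC Ad-GFP culture, at -1.65. Col7a1 was at 75.3 and 111 TPM in mixed and 79.9 TPM in bronchiolar BASC cultures, of which the first and last lay below the tracheal values. Of the lists, 1 gene each rose in the fibroblast (Mfap5, 1.62), smooth muscle (Tagln, 1.21), AT2, AT1 and club lists. The AT2 list had a median log2 change of 5.09 here with 1 of 8 called, and summed to 802 and 3565 TPM in mixed and 3023 TPM in bronchiolar BASC cultures, against 67.7 to 182 TPM in the tracheal and 77572 to 83541 TPM in the alveolar ones.

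Basal and club cultures, both of tracheal cells sorted by NGFR, were compared with virus as a block. The edgeR test called 0 of 35 collagens, where 0.29% of 17234 genes were called, 7 collagens and 6.37% of all genes had an unadjusted p below 0.05, and DESeq2 called 0 collagens and 0.592% of all genes. Col1a1 differed by -0.02, Col4a1 by -0.11 and Col17a1 by -0.01 on the log2 scale, less than the spread between cultures. The smallest adjusted p was 0.0748, for Col23a1 (-1.11, SE 0.202), which stood at 2.91 and 2.42 TPM in club and 1.14 and 1.48 TPM in basal cultures. Its groups were apart at these low levels. Among the lists of collagen genes' partners, the collagenase Mmp13 (0.70) and the gelatinase Mmp9 (0.82) were higher in basal cultures.

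Ad-Cre was compared with Ad-GFP to see what switching on mutant EGFR does, over 4 cell populations with population as a block. By edgeR 0 of 36 collagens were called, where 0% of 17749 genes were called, 2 collagens (Col27a1 and Col10a1) and 1.97% of all genes had an unadjusted p below 0.05, and DESeq2 called 0 collagens and 0.0282% of all genes. The median log2 change was 0.29 and 34 of 36 were positive, against a median of -0.01 for all genes. The 4 pairs did not move alike. With Ad-Cre, 8 of the 36 tested collagens were higher in club cells (median log2 -0.19), 20 in basal cells (0.03), 29 in AT2 cells (0.53) and 30 in mixed BASCs (0.80). Of all 17749 genes 51.5%, 50.8%, 47.9% and 50.9% were higher in the same order, with medians of 0.01, 0.00, -0.01 and 0.01. Col1a1 differed by -0.28 in club, 0.04 in basal, 0.50 in AT2 and 1.12 in mixed BASC cultures, with a log2 change of 0.34 in the fit (SE 0.248, 0.079 to 0.54 with 1 library left out). Col4a1 differed by -0.31, 0.07, 0.29 and 1.58 in the same order, with 0.39 in the fit (SE 0.314, 0.0081 to 0.63 with 1 library left out). Both were thus lower in 1 of 4 pairs and highest in the mixed BASC pair. The fibroblast score was 4.46 and 4.54 in club, 4.44 and 4.41 in basal, 6.71 and 6.60 in AT2 and 4.67 and 5.60 in mixed BASC cultures. In the mixed BASC pair virus and cell mixture thus cannot be told apart, and the part of the mixture was not tested. Col17a1 differed by -0.33, -0.14, 0.69 and -0.33, with -0.04 in the fit (SE 0.238), and its AT2 values were below 0.5 TPM in either culture. A test of whether the virus effect differed between distal lung and trachea called 0 of 36 collagens and 0 of 17749 genes in edgeR, with 8 collagens and 4.8% of all genes at an unadjusted p below 0.05 and a smallest adjusted p of 0.678 among collagens. DESeq2 was not run on that difference.

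After transplant, 7 tumoroids were compared with the 4 distal Ad-Cre organoids. Here 5 of 36 collagens fell, where 8.77% of 16139 genes fell, and 0 rose in edgeR, where 10.8% of all genes rose. DESeq2 called 7 collagens and 28.6% of all genes. At an unadjusted p below 0.05, 12 collagens fell, as did 16.4% of all genes, and 0 rose. The 4 organoids stand for 2 sorted populations, with 1 culture from AT2 cells and 3 from BASCs, and the test took them as independent. The AT2 marker list summed to 77572 TPM in AT2, 3565 TPM in mixed, 78096 TPM in alveolar and 3023 TPM in bronchiolar BASC organoids. It summed to 31114 TPM or more in each AT2 and mixed BASC tumoroid and to 8217 TPM in the bronchiolar one. The sides thus differ in lineage, which this comparison does not separate from transplant. The median was -0.88 for the collagens and 0.00 for all genes. Col12a1 ran from 6.07 through a median of 36.8 to 66.3 TPM in the tumoroids, against 123 TPM in AT2, 175 TPM in mixed, 138 TPM in alveolar and 146 TPM in bronchiolar BASC organoids. Every tumoroid lay below every organoid, and the log2 change was -2.34 (SE 0.504, n = 7 and 4, adjusted p 0.00938). Col25a1, a neuronal transmembrane collagen at low level here, ran from 0.10 through 0.28 to 0.99 TPM, against 2.44, 2.35, 2.29 and 2.81 TPM in the same organoids. Its groups were apart too, with a log2 change of -2.70 (SE 0.496, adjusted p 0.00469). Col11a1, a minor fibril-nucleating chain, ran from 2.31 through 5.96 to 15.4 TPM, against 61.8 TPM in AT2, 17.7 TPM in mixed, 35.5 TPM in alveolar and 14.2 TPM in bronchiolar BASC organoids. In TPM AT2 tumoroid 3 lay above the bronchiolar organoid, while in CPM the groups were apart, and the log2 change was -2.29 (SE 0.550, adjusted p 0.0151).

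Col8a2 and Col7a1 also fell, and their groups overlapped. Col8a2 ran from 0.21 through 0.50 to 1.22 TPM in the 7 tumoroids, against 19.2 TPM in AT2, 0.94 TPM in mixed, 4.14 TPM in alveolar and 0.84 TPM in bronchiolar BASC organoids. The AT2 organoid carried much of the difference: the log2 change of -3.34 (SE 0.816, adjusted p 0.0163) was -1.74 and not called without it. Col7a1 ran from 2.54 through 7.05 to 41.7 TPM, against 12.4 TPM in AT2, 111 TPM in mixed, 10.5 TPM in alveolar and 79.9 TPM in bronchiolar BASC organoids. The bronchiolar tumoroid lay above the AT2 and alveolar organoids, and the log2 change was -2.89 (SE 0.900, adjusted p 0.0446). That call was lost, at -2.89 to -2.20, when any 1 of the 3 AT2 tumoroids, the 3 mixed BASC tumoroids or the mixed and bronchiolar BASC organoids was left out, and at -2.51 with cell origin as a block. Without AT2 tumoroid 3 the count of called collagens was 8 (20.9% of all genes), and without the AT2 organoid it was 3 (15.2%).

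Col17a1 was at 0.44 TPM in AT2, 113 TPM in mixed, 8.54 TPM in alveolar and 49.1 TPM in bronchiolar BASC organoids, and ran from 0 through 0.30 to 13.9 TPM in the tumoroids. The bronchiolar tumoroid held the highest value and the other 6 were below 0.5 TPM. Its log2 change of -4.30 (SE 1.80, adjusted p 0.117) was not called, and was -8.55 and called without the bronchiolar tumoroid. Col1a1 ran from 74.1 through 229 to 1348 TPM in the tumoroids and Col4a1 from 149 through 373 to 567 TPM, both overlapping the organoids. The log2 changes of -0.42 (SE 0.675) for Col1a1 and 0.50 (SE 0.473) for Col4a1 were not called. With 1 library left out Col1a1 ran from -1.175 (without AT2 tumoroid 3) to -0.17 (without the AT2 organoid) and Col4a1 from 0.23 (without the mixed BASC organoid) to 0.86 (without the AT2 organoid), and neither was called. Among the pathway lists Mia3 (-0.91, adjusted p 0.0476) and the procollagen proteinase Tll1 (-2.34, adjusted p 0.0114) fell. Of the fibroblast markers 3 of 15 fell (Lum, Mfap5 and Postn), as did 2 of 12 smooth muscle markers and 1 of 5 chondrocyte markers, beside 8.77% of all genes. Of the endothelial markers 1 of 6 rose (Pecam1) and of the immune markers 1 of 5 (Cd79a), beside 10.8% of all genes. Counts this small cannot be told apart from these shares. The part of the support cells in these falls was not tested beyond the fit with the fibroblast score. There 5 collagens fell, and 19.8% of all genes were called in either direction. Col12a1 (-1.72) and Col25a1 (-2.10) kept their call, Col20a1, Col15a1 and Col4a5 gained one, and Col8a2 (-2.74, adjusted p 0.188), Col7a1 (-3.07, adjusted p 0.0878) and Col11a1 (-1.24, adjusted p 0.0562) lost theirs.

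AT2 tumoroids were compared with mixed BASC tumoroids, 3 against 3, for a trace of the cell of origin. By edgeR 0 of 35 collagens were called, where 0% of 15470 genes were called, 0 had an unadjusted p below 0.05, against 0.931% of all genes, and DESeq2 called 0, against 0.0452%. Col1a1 was at 99.5, 74.1 and 1348 TPM in the AT2 and 295, 463 and 124 TPM in the mixed BASC tumoroids. Col4a1 was at 473, 373 and 305 TPM in the AT2 and 567, 260 and 401 TPM in the mixed BASC tumoroids. Either gene's groups overlapped, with log2 changes of 0.80 (SE 1.10) and 0.11 (SE 0.375). AT2 tumoroid 3 decided the sign for Col1a1, whose log2 change was -1.51 without it.

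The relation of each collagen to stromal content was measured with the fibroblast score, separately for organoids and tumoroids, over 16425 genes of which 36 were collagens. Among the 10 organoids 23 collagens had a called positive relation, where 27.5% of all genes did, and 3 (Col17a1, Col7a1 and Col20a1) a negative one, where 31.1% did. A relation was called on the adjusted p of Pearson's r. The median r was 0.827 for collagens and -0.194 for all genes. Col1a2 had r 0.992 (permutation p 1e-05, the smallest that the resamples can give, adjusted p 0.00076) and Spearman rho 0.964 (permutation p 9e-05, adjusted p 0.00441), with r 0.984 without the AT2 Ad-GFP and AT2 Ad-Cre cultures, the 2 farthest from the median score. Col1a1 had r 0.874 (permutation p 0.00161, adjusted p 0.00604) and rho 0.733 (permutation p 0.0206, adjusted p 0.0538), with r 0.756 without those 2. For Col4a1 r was 0.964 (permutation p 0.00036, adjusted p 0.00279) and rho 0.746 (permutation p 0.0175, adjusted p 0.0484), with r 0.945 without those 2. Both chains were thus higher where the score was higher. For Col17a1 r was -0.944 (permutation p 6e-05, adjusted p 0.00175) and rho -0.939 (permutation p 0.00023, adjusted p 0.00633), with r -0.901 without those 2. The 3 alveolar cultures held the 3 highest scores, so lineage and score cannot be told apart over the 10. Within the 7 tracheal and airway-type BASC cultures, a subset chosen after seeing the data, 0 collagens and 0 of 16425 genes (0%) were called by the exact permutation test, and 17 collagens had a positive and 1 a negative relation at an unadjusted p below 0.05, as did 13.1% and 9.34% of all genes. Over these 7 Col1a1 had r 0.828 (exact p 0.0359, adjusted p 0.221) and rho 0.393 (exact p 0.396, adjusted p 0.669), and r -0.803 without mixed BASC Ad-Cre and bronchiolar BASC, on which the relation therefore rests.

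Among the 8 tumoroids 7 collagens had a called positive relation, where 3.58% of all genes did, and 0 a negative one by the exact permutation test, where 0.457% did, with 1 collagen and 7.25% of all genes negative at an unadjusted p below 0.05 and no other tool run. The 7 were Col1a1, Col1a2, Col3a1, Col5a1, Col5a2, Col6a3 and Col16a1, so 5 of 11 fibrillar collagens, 1 beaded-filament chain and 1 fibril-associated collagen. The median r was 0.501 for collagens and -0.04 for all genes. Col1a1 had r 0.957 (exact p 0.000298, adjusted p 0.0246) and rho 0.976 (exact p 0.000397, adjusted p 0.0241), with r 0.956 without AT2 tumoroids 2 and 3, the 2 farthest from the median. Col4a1 had r -0.256 (exact p 0.540, adjusted p 0.778) and rho -0.286 (exact p 0.501, adjusted p 0.727), with r -0.109 without those 2. AT2 tumoroid 3 and mixed BASC tumoroid 2, with the highest scores, held 305 and 260 TPM of Col4a1, and only the bronchiolar tumoroid held less, at 149 TPM. Col17a1 had r 0.328 (exact p 0.451, adjusted p 0.716) and rho 0.623 (exact p 0.106, adjusted p 0.39), with r 0.0789 without those 2. Without the bronchiolar tumoroid, a choice made after seeing the data, 11 collagens had a called positive relation, as did 4.72% of all genes, and with smooth muscle genes added to the score 3 did, as did 1.08% of all genes.

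**Figure D3:**
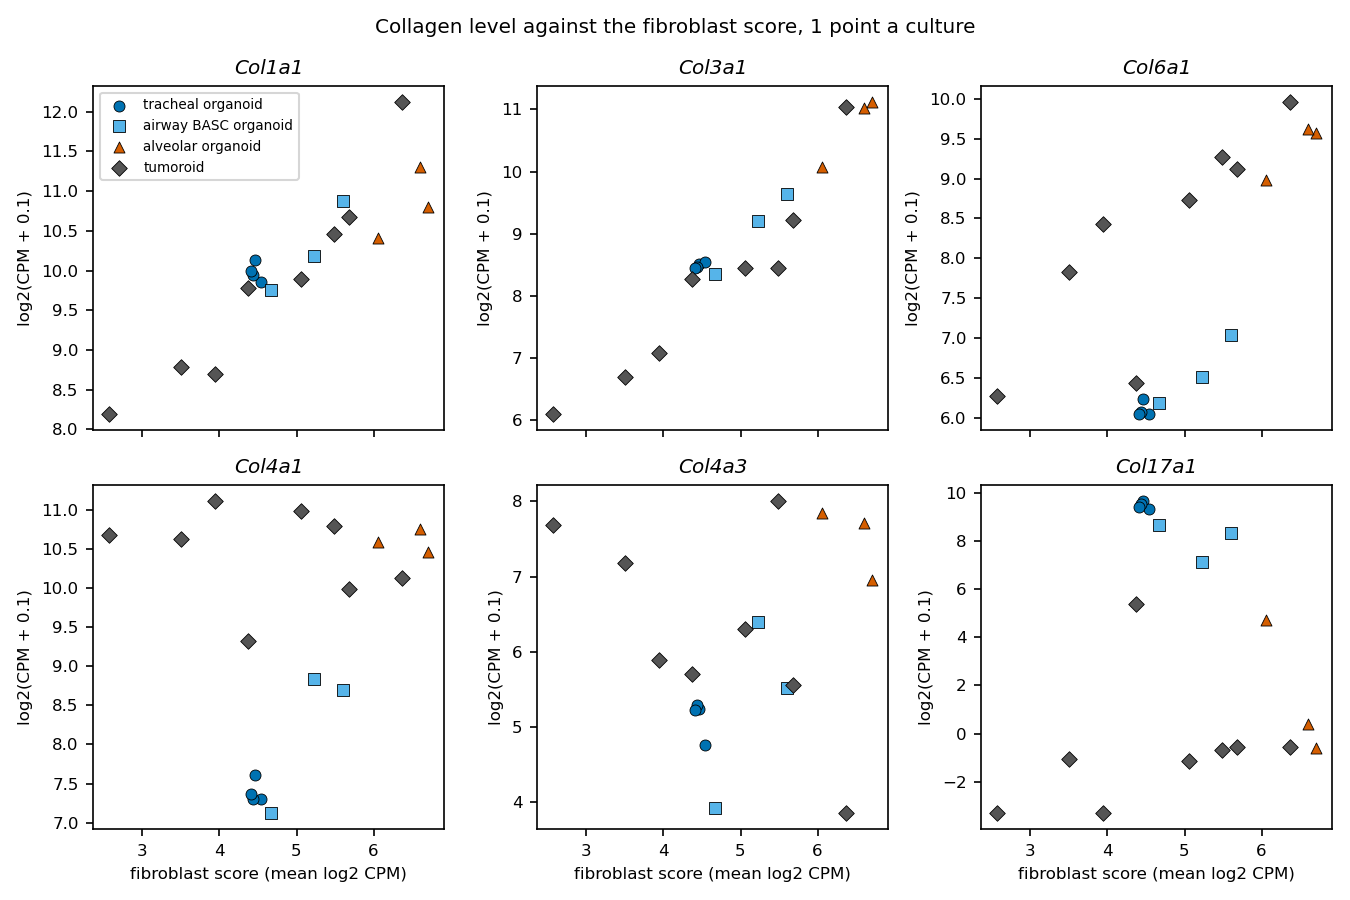
Log2 of CPM plus 0.1 of single collagens (vertical, 1 panel a gene) against the fibroblast score, a mean log2 CPM (horizontal), with 1 point a culture and shape and color for its kind. Col1a1 rises along the score in organoids and tumoroids, and Col17a1 is low in the alveolar organoids and in all tumoroids but the bronchiolar one.

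The genes most like 3 collagens across the 18 samples, on 2 platforms, were ranked among 10936 genes by Pearson r of log2 CPM, as a description with no test. For Col1a1 they were Col1a2 (0.962), Col5a1 (0.960), Fkbp9 (0.953), Rcn1 (0.950) and Nfatc4 (0.947). For Col4a1 they were Col4a2 (0.992), Plxna4 (0.988), Snx30 (0.987), Npc2 (0.985) and Fbp2 (0.985). Col17a1 was followed by Erich3 (0.982), Tmprss11g (0.979), Nme5 (0.979), Acsm1 (0.977) and Itln1 (0.977).

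The 6 collagen IV genes lie as 3 head-to-head pairs in the annotation. Col4a1 and Col4a2 overlap by 22 bases at their starts on chromosome 8 (11312805 to 11312826), and reads in those bases cannot be assigned to a strand from the deposited values. Col4a4 and Col4a3 start 71 bases apart on chromosome 1, and Col4a6 and Col4a5 start 1308 bases apart on the X chromosome. Over the 18 samples the TPM ratio of Col4a1 to Col4a2 ran from 1.06 to 1.87 and that of Col4a3 to Col4a4 from 0.867 to 1.55. The bases between Col4a4 and Col4a3 are shown because both genes rose together in the alveolar cultures. They are read on the plus strand at chr1:82586850-82586920 of RefSeq GRCm38.p6, and hold none of the motifs searched, so nothing is in capitals.
between Col4a4 and Col4a3: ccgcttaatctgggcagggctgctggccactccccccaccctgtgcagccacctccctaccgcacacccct

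Upstream sequence was read for 35 of the 44 collagens, 30 of them among the 37, from the RefSeq GRCm38.p6 table of promoters, in 38 windows of 250 bases before the start. Each window was searched on both strands for the TATA box (TATAAA), the CCAAT box (CCAAT), the GC box (GGGCGG) and the AP-1 motif (TGANTCA). The TATA box was in 5 collagen windows and in 12.4% of all 32851 promoters, the CCAAT box in 13 and 33.9%, the GC box in 22 and 32.7%, and the AP-1 motif in 1 and 6.75%. Col3a1 is shown as a collagen that rose in the alveolar cultures, and Col7a1 and Col17a1 as those that fell most, each 5′ to 3′ on its gene's strand and outside the annotated gene. The Col3a1 stretch lies at chr1:45311288-45311537 on the plus strand, that of Col7a1 at chr9:108953336-108953585 on the plus strand and that of Col17a1 at chr19:47692095-47692292 on the minus strand, the last trimmed to 198 bases. Capitals mark the TATA boxes of Col3a1 and Col17a1 and, in Col7a1, a CCAAT box read on the other strand (ATTGG) and a GC box. A match to these letters is a description and not a bound site.
Col3a1 upstream: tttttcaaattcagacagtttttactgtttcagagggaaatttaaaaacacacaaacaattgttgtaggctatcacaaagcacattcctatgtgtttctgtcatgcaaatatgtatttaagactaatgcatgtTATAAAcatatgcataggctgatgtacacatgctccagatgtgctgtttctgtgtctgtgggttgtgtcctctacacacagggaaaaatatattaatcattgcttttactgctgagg
Col7a1 upstream: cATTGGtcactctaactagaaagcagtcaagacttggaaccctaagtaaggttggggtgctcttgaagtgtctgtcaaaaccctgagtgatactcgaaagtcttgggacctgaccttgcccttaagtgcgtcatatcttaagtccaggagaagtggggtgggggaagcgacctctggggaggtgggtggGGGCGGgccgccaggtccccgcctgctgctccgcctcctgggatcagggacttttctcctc
Col17a1 upstream: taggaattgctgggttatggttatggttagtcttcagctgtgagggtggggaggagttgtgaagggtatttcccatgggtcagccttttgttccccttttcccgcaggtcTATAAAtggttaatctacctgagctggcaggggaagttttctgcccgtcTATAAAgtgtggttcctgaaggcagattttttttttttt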

How the data were processed

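RNA was sequenced in 18 mouse cultures, 10 organoids and 8 tumoroids. The authors trimmed reads with Trimmomatic 0.39, aligned them with STAR 2.6.1d to GRCm38 and deposited, per gene, the expected count estimated by RSEM 1.3.2, with no normalization between samples, and TPM. Of 46603 genes, 46091 matched GENCODE vM21 by identifier and 512 did not. Expected counts were rounded and tested in R 4.3.3 with edgeR 4.0.16 (filterByExpr, TMM, quasi-likelihood F test, Benjamini-Hochberg over all genes tested, called at an adjusted p below 0.05). Cultures of 1 lineage stood in for replicates, since no organoid condition was repeated, so p values measure the spread between cultures. Ad-GFP and Ad-Cre cultures are aliquots of 1 sort and were counted as separate samples, so the 3 alveolar and 4 tracheal cultures come from 2 sorted populations each. Libraries were compared pairwise within the 4 tracheal organoids, the 3 AT2 and the 3 mixed BASC tumoroids, and none were identical. Virus was compared with cell population as a block, the basal and club cultures with virus as a block, and all other comparisons were unpaired. Fibroblast scores and correlations used TMM-scaled log2 CPM (prior count 2) and two-sided permutation tests, with 100000 resamples for 10 organoids and exact enumeration of 40320 pairings for 8 tumoroids and of 5040 for 7 cultures. Levels are deposited TPM, in Python 3.11.15 with pandas 2.3.3, numpy 2.4.6, scipy 1.17.1 and matplotlib 3.10.9. The pipeline was tested on simulated data. The members and lists were chosen with earlier results of these data known. Values in every sample were given by rule for Col1a1, Col4a1, Col17a1, the highest collagen of each class and the 2 largest called changes in each direction per comparison; pathway and marker genes as the most abundant, the largest called change in each direction or by role, and other genes were named after their values were seen. Alternatives were DESeq2 1.42.0, its size factors, other filters, no block, the fibroblast score as a covariate, other groupings, 1 fit over 18 samples and leaving out each library. The human EGFR transgene was not analysed.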

Additional observations from a re-analysis of the deposited data

Results flagged for a closer look

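In 27 groups of values tested for a single far sample, 4 were past the limit. Chance passes that limit in about 1 in 20 groups of like, normally distributed values. The groups here share samples and the tumoroids are of more than 1 lineage, so that rate need not hold. Col6a1 was at 34.18 TPM in the club culture with Ad-GFP, and the next highest of the 4 tracheal cultures was at 29.21 TPM. Among the 7 tumoroids after transplant, the bronchiolar BASC tumoroid stood far from the others for Col17a1, at 13.86 TPM (next 0.48 TPM), and for Col7a1, at 41.74 TPM (next 10.78 TPM). AT2 tumoroid 3 was far from the others for Col1a1, at 1348 TPM (next 463.2 TPM), and it also had the highest fibroblast score of the tumoroids, 6.37.

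The autochthonous tumoroid, which entered no comparison of groups, held the highest level of all 18 samples for 7 collagens. These were Col2a1 at 89.3 TPM (next 66.06 TPM), Col4a3 at 47.78 TPM (next 42.75 TPM), Col9a2 at 30.2 TPM (next 23.14 TPM), Col11a2 at 21.5 TPM (next 9.16 TPM), Col23a1 at 19.07 TPM (next 13.39 TPM), Col9a1 at 18.56 TPM (next 10.23 TPM) and Col27a1 at 10.4 TPM (next 10.09 TPM). As a single culture it was not tested. The share of all genes that were highest in it was not counted, so the 7 cannot be read against that share.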

How the results depend on the processing

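Of 86 alternative values of the counts of called collagens, 74 were within 1.5 times the reported count and 12 were not; of 383 for single genes, 324 kept direction and side of the threshold, 33 lost and 5 gained the call, and 21 changed sign. Where a value moved, the cause was not tested. A count of called collagens that stands here without the share of all genes cannot be read against that share. Between alveolar and tracheal cultures 33 collagens were called in all, 32 to 34 with 1 library left out, 32 with the members chosen without AT2 tumoroid 3 (a choice made after seeing the data), 21 in 1 fit over 18 samples, 0 with all 6 distal cultures and 3 with the fibroblast score as a covariate, which gave Col1a1 -0.81, Col17a1 8.04, Col12a1 -0.35 and Col18a1 -0.58 but Col4a1 3.48, Col4a3 4.64 and Col7a1 -3.72; 13 of the 33 changed sign, and the SE was larger by a median factor of 4.35. DESeq2 gave Col17a1 no adjusted p there. For airway-type BASC cultures the count was 6 in DESeq2 and 0 to 22 with 1 library left out, and the covariate gave Col1a1 -0.52 and Col4a1 -0.40. For basal and club cultures it was 1 with no filter and 1 with no replicate block, where virus is the block, and leaving out a library could not be fitted beside that block and was not run. For virus it was 0 with no replicate block and 0 to 0 with 1 library left out. Col17a1 for virus was 0.0078 in DESeq2, 0.035 in 1 fit over 18 samples, 0.26 in distal cultures alone and -0.26 to 0.089 with 1 library left out, and in tracheal cultures alone Col1a1 was -0.13 and Col4a1 -0.13. After transplant the count was 3 to 8 with 1 library left out, and the covariate gave Col1a1 0.38. With cell origin as a block 4 were called, of 5 reported. All of these transplant settings kept mixed or bronchiolar BASC organoids, so the sides still differed in lineage. For AT2 against mixed BASC tumoroids the count was 0 to 0, with Col1a1 at -1.51 to 1.36 and Col4a1 at -0.13 to 0.35. The stromal relation was called for 0 collagens in the 7 cultures without the alveolar ones, and in tumoroids for 3 with smooth muscle genes in the score and 11 without the bronchiolar tumoroid; the 7-culture and bronchiolar choices were made after seeing the data. DESeq2-type size factors moved the median of all genes by at most 0.0189. Depth limits collagens near 3 counts, such as Col6a4 and Col14a1 in tracheal cultures.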
